A study of Mus musculus with 32 samples.

Results

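The cytochrome P450 genes described here are the protein-coding mouse genes whose symbol starts with Cyp followed by a family number, where the gene has a row in the table of at least 1 of 4 organs. There were 38 such genes among the 10055 genes listed in any organ. The study compared male mice that lack ketohexokinase (Khk KO), the enzyme that phosphorylates fructose, with male wild-type (WT) mice, to ask how fructose and this enzyme bear on iron homeostasis. Polyadenylated RNA was sequenced from liver and from the duodenum, jejunum and ileum of the small intestine, with 4 libraries for each genotype in each organ and 32 libraries in all. The labels give no age, strain, diet or treatment, do not describe the Khk allele, and leave unsaid whether 1 mouse gave all 4 organs. Each p-value therefore measures the spread between these libraries.

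Cytochrome P450 enzymes are haem proteins that use molecular oxygen and electrons from NADPH to add an oxygen atom to their substrates. Families 1 to 3 are best known for the oxidation of drugs, toxins and steroids in the liver and the gut wall. Family 4 hydroxylates fatty acids and eicosanoids, family 26 degrades retinoic acid, and families 7, 8, 11, 17, 27 and 51 act in the metabolism of bile acids, steroid hormones, vitamin D and cholesterol. Many of these genes are controlled by nuclear receptors and by the aryl hydrocarbon receptor, and many sit in tandem arrays of near-identical copies.

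The reads of the listed genes came to between 1722220 and 14331517 per library. The true depth is higher, because a gene has a row only where the authors' own test gave it an unadjusted p under 0.05. A Cyp gene is thus listed only where that test already found a difference, and the number listed says nothing by itself about the family. For the same reason, an unadjusted p under 0.05 in a refit of these counts was likely beforehand and adds no support. The targeted gene, Khk, was lower in every Khk KO library than in every WT library of the same organ, at 4.59% to 11.1% of the WT mean. Gene length moved with genotype in all 4 organs. The median deviation of genes of 5000 bases and over, minus that of genes under 1500 bases, ran from 0.60 to 0.79 on the log2 scale in the liver Khk KO libraries and from -1.39 to 0.05 in the liver WT libraries. Liver WT replicate 1, at 0.05, lay nearest to the Khk KO libraries. In ileum the same difference was 0.50 to 0.59 in Khk KO and -1.12 to -0.13 in WT. WT replicate 1 was the lowest library in ileum (-1.12), jejunum (-1.14) and duodenum (-1.14). Results for the P450 genes, most of which are short, are therefore given as counted, beside genes of like length, and after this trend was taken out of each library.

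Of 100 protein-coding Cyp genes in the GENCODE annotation, 38 were listed in some organ. Family 2, the largest, had 16 of its 49 genes listed. Family 4 had 8 of 20, family 3 had 4 of 9, and families 26 and 27 had 2 of 3 and 2 of 2. Families 1, 8, 11, 17, 20 and 51 had 1 listed gene each. Liver listed 21 P450 genes, ileum 13, jejunum 7 and duodenum 2. Only 4 genes were listed in more than 1 organ, namely Cyp26b1, Cyp2e1, Cyp3a59 and Cyp4f16.

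In liver the genes that passed the test split in both directions: enzymes of drug, fatty acid and retinoic acid oxidation rose in Khk KO, and an androgen-synthesis enzyme and a pair of Cyp2d genes fell. Of the 21 listed genes, 20 passed the filter on low counts of the edgeR quasi-likelihood test, of which 12 had a positive and 8 a negative log2 fold change. At a Benjamini-Hochberg adjusted p under 0.05 it called 5 genes higher in Khk KO (Cyp1a2, Cyp26b1, Cyp2c50, Cyp3a25 and Cyp4a31). The background for that count is 22.8% of all fitted liver genes. It called 3 genes lower (Cyp17a1, Cyp2d10 and Cyp2d40), beside a background of 23.8%. By the authors' deposited table, 8 were higher and 5 lower at that threshold, adding Cyp2a4, Cyp2b10 and Cyp2b9 to the first set and Cyp4f16 and Cyp8b1 to the second, beside backgrounds of 35.8% and 32.6%. Normalised counts of the genotypes did not overlap for 7 of the 21 genes, against 65% of all listed liver genes. Read against these backgrounds, 5 and 3 of 20 genes are not an unusual share.

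The calls depended on single liver libraries. Without WT replicate 1, the library that stands apart in its length trend, 7 genes were called higher and 8 lower. Without WT replicate 3 the counts were 3 and 2. No P450 gene was called without WT replicate 2, WT replicate 4, Khk KO replicate 1 or Khk KO replicate 2, and 1 lower gene was called without Khk KO replicate 3 (Cyp2d40) or Khk KO replicate 4 (Cyp17a1). These shifts ran through the whole table: over all liver genes, 1310 were called higher and 1365 lower with all libraries, 2407 and 2453 without WT replicate 1, and 8 to 198 higher and 1 to 335 lower in the 4 fits that called no P450 gene. The median log2 fold change of the P450 genes stayed between 0.32 and 0.45 in these fits.

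The liver P450 genes had positive log2 fold changes more often than other genes of like length, while 49.4% of all fitted protein-coding genes had one. Their median length was 2083 bases, against 4590 bases for all listed protein-coding genes. Among genes of 2000 to under 3000 bases, 7 of 10 P450 genes had a positive log2 fold change, whereas 6.25% of 800 other protein-coding genes did. Among genes of 1500 to under 2000 bases it was 3 of 7 P450 genes and 3.37% of 415 others, and the medians of both were negative, at -0.53 and -0.65. The median log2 fold change was 0.41 for the P450 genes, -0.25 for all fitted protein-coding genes and 0.33 for all fitted genes, in a table that holds few values near 0. Measured from a curve of log2 fold change on gene length, 15 of 20 P450 genes lay above the curve, with a median difference of 0.91 on the log2 scale. Of the other protein-coding genes, 50.2% lay above it. The curve rests on listed genes alone. Short genes with little difference between genotypes are absent from it, so these distances hold only against other listed genes.

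**Figure D1:**
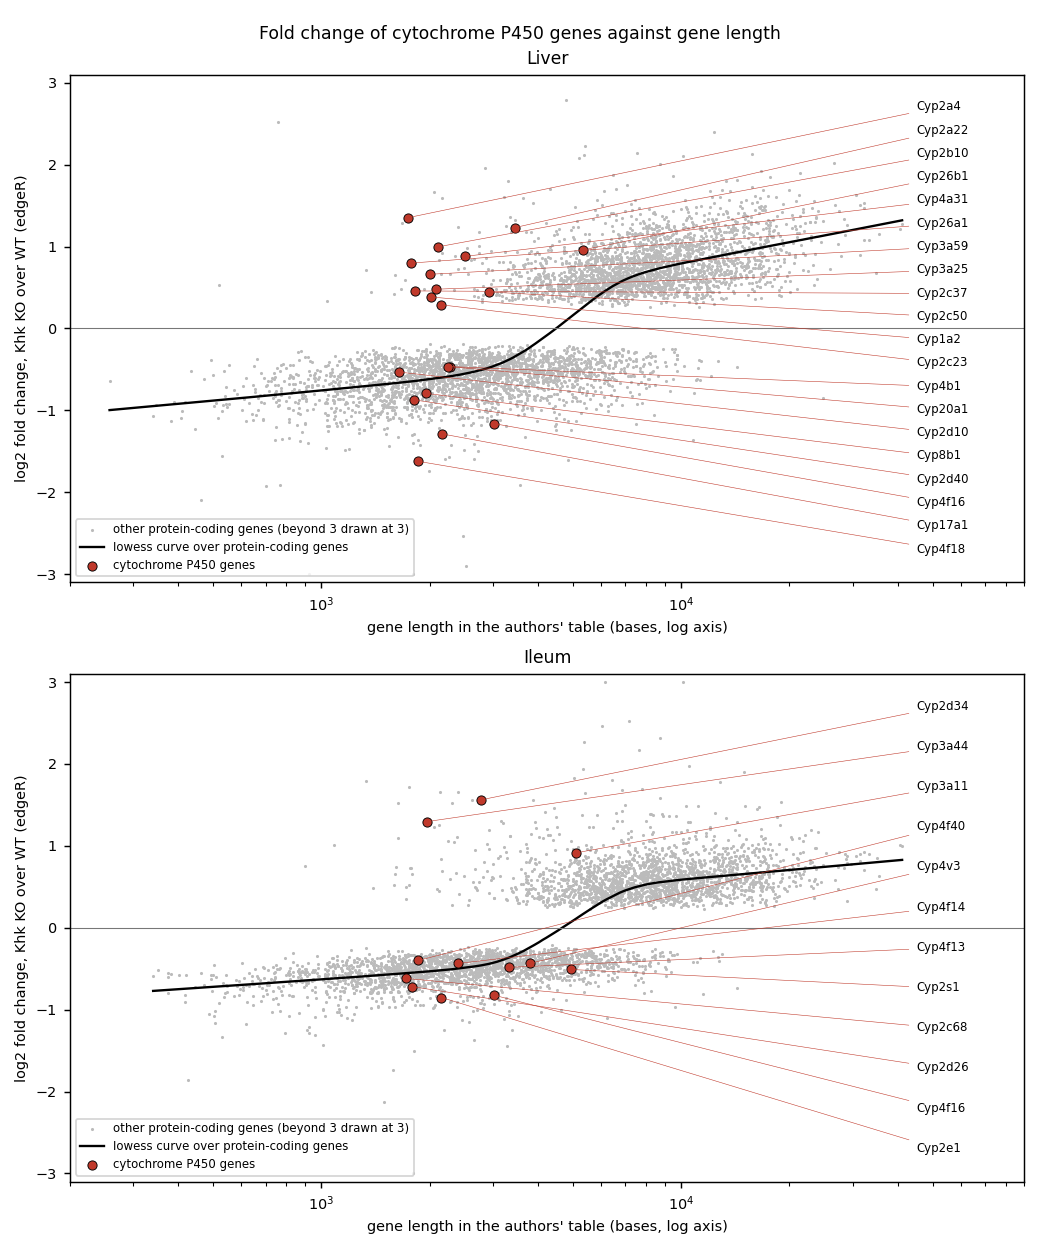
Log2 ratio of Khk KO to WT from edgeR (vertical axis) against gene length in bases (horizontal log axis) for protein-coding genes of the liver (top) and ileum (bottom) tables. Grey points are other genes, red points are P450 genes with lines to their names, and the black line is the lowess curve. In liver 15 of 20 P450 genes lie above the curve, in ileum 5 of 12, and the empty band around 0 reflects the p-value limit of the tables.

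Cyp1a2, which oxidises caffeine and aromatic amines in pericentral hepatocytes and is a known target of the aryl hydrocarbon receptor, had 14441, 15367, 16452 and 15240 normalised counts in the Khk KO livers. The WT livers had 11910, 12462, 12236 and 11410. Every Khk KO library was above every WT library, and the Khk KO mean was 1.28 times the WT mean. The log2 fold change was 0.38 ± 0.09 (SE; adjusted p = 0.0258, edgeR), and 94% of other protein-coding genes of 2000 to under 3000 bases had a lower one. It was the only member of its family listed in any organ.

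Cyp3a25, a steroid and drug hydroxylase of the family 3 array, had 17967, 15742, 15220 and 16113 normalised counts in Khk KO against 9792, 12652, 13310 and 11872 in WT. The groups did not overlap, and the log2 fold change was 0.48 ± 0.11 (SE; adjusted p = 0.0247, edgeR). Its neighbour Cyp3a59 had 946 to 1116 normalised counts in Khk KO and 302, 631, 961 and 757 in WT. WT replicate 1 was the lowest, WT replicate 3 lay within the Khk KO range, and the log2 fold change of 0.66 ± 0.27 (SE) missed the threshold (adjusted p = 0.129, edgeR). Without WT replicate 1 it was 0.38. These 2 genes share sequence: 25.2% of the 50-base words of Cyp3a25 transcripts also occur in those of Cyp3a59, so reads could be split between them.

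All 3 listed Cyp2c genes, epoxygenases and hydroxylases of arachidonic acid and many drugs, had higher means in Khk KO. Cyp2c50 had 13848, 14435, 16241 and 12718 normalised counts in Khk KO against 11951, 10680, 10033 and 10119 in WT, with no overlap. Its log2 fold change was 0.45 ± 0.12 (SE; adjusted p = 0.0315, edgeR). Cyp2c37 averaged 6173 ± 1302 in Khk KO and 4586 ± 680 in WT (SD, n = 4), with overlapping groups. Cyp2c23 averaged 8232 ± 235 in Khk KO and 6862 ± 731 in WT (SD, n = 4), and its groups did not overlap. Their log2 fold changes of 0.46 and 0.29 missed the threshold as counted (adjusted p = 0.0886 and 0.112, edgeR).

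Cyp2c37 and Cyp2c50 are close copies on chromosome 19, and 21.1% of the 50-base words of Cyp2c37 occur in Cyp2c50. The 200 bases before their RefSeq start sites (build GRCm38.p6, plus strand) are shown because the means of both genes were higher in Khk KO. They lie at chr19:39992224-39992423 and chr19:40089479-40089678. Each window was searched on both strands for CAAAGT, letters found in binding sites of the hepatocyte factor HNF4, for the nuclear receptor half-sites AGGTCA and AGTTCA, for the TATA box letters TATAAA and for the GATA factor letters AGATAA. Capitals mark every match, and AGTTCA and CAAAGT can overlap.
Cyp2c37: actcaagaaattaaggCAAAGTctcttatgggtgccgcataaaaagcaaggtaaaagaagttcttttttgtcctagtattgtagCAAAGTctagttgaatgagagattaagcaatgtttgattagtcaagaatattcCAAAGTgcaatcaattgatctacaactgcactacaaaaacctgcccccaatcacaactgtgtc
Cyp2c50: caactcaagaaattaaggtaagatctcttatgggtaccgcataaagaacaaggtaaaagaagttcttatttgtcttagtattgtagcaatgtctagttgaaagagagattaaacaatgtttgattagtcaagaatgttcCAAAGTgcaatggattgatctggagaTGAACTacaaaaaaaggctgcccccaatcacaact
CAAAGT occurs 184, 116 and 63 bases before the start of Cyp2c37 and 61 bases before that of Cyp2c50, and AGTTCA occurs on the minus strand 35 bases before the latter. CAAAGT was in 15 of the 33 P450 windows found in the RefSeq promoter table and in 9.84% of 32851 windows of all genes. TATAAA was in 11 of the 33 windows and 9.96% of all, AGGTCA in 5 and 11.4%, and AGATAA in 2 and 7.80%.

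The listed Cyp2a and Cyp2b genes had higher means in Khk KO and varied widely between libraries. Cyp2b10, the standard readout of the drug-sensing receptor CAR, had 175, 178, 278 and 372 normalised counts in Khk KO against 96.3, 209, 79.4 and 128 in WT. WT replicate 2 exceeded the 2 lowest Khk KO libraries, and the log2 fold change of 1.00 ± 0.34 (SE) had an adjusted p of 0.0699 (edgeR). Cyp2b9, a gene known as higher in female mouse liver, had 7.27 to 47.6 normalised counts in the 4 Khk KO libraries. In WT it had 8.76 in replicate 1 and 0 in the other 3 libraries, and it did not pass the edgeR filter on low counts. Cyp2a4, a steroid hydroxylase also known as female-biased, averaged 60.4 ± 22.3 in Khk KO and 24.1 ± 19.6 in WT (SD, n = 4). Cyp2a22 averaged 31.1 ± 20.9 in Khk KO and 13.2 ± 4.48 in WT (SD, n = 4). For both genes the groups overlapped and the adjusted p was 0.0942 and 0.166 (edgeR). All 4 genes lie in the array of P450 genes on chromosome 7, and 36.1% of the 50-base words of Cyp2a4 also occur in Cyp2a5, which was not listed.

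Cyp4a31, a fatty acid omega-hydroxylase and known target of PPAR alpha, had 302, 194, 221 and 263 normalised counts in Khk KO against 204, 133, 89.2 and 117 in WT. WT replicate 1 was just above the lowest Khk KO library, and the log2 fold change was 0.88 ± 0.26 (SE; adjusted p = 0.047, edgeR). The other 3 family 4 genes listed in liver had negative log2 fold changes. Cyp4f16 had 24.0, 21.1, 20.2 and 12.7 in Khk KO and 23.0, 41.1, 59.7 and 54.1 in WT, so WT replicate 1 lay among the Khk KO libraries. Cyp4f16 had an adjusted p of 0.0604, Cyp4f18 one of 0.166 and Cyp4b1 one of 0.111 (edgeR). Family 4 thus held 1 gene called higher and 0 called lower by edgeR, whereas DESeq2 also called Cyp4f16 lower. At an unadjusted p under 0.05, which listing made likely beforehand, 3 family 4 genes were lower.

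Both family 26 genes listed in liver had higher means in Khk KO. Their enzymes hydroxylate all-trans retinoic acid and so lower its level. Cyp26b1 had 176, 137, 144 and 227 normalised counts in Khk KO against 125, 85.5, 87.0 and 60.7 in WT. The groups did not overlap, the Khk KO mean was 1.91 times the WT mean, and the log2 fold change was 0.96 ± 0.26 (SE; adjusted p = 0.0345, edgeR). Cyp26a1, the classic retinoic acid-induced gene, had 132, 336, 238 and 305 in Khk KO against 116, 72.5, 227 and 177 in WT. Khk KO replicate 1 lay within the WT range, and the log2 fold change of 0.80 ± 0.36 (SE) had an adjusted p of 0.162 (edgeR). It was 0.52 without WT replicate 2.

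The 200 bases before the RefSeq start of Cyp26a1 (build GRCm38.p6, chr19:37697608-37697807, plus strand) are shown because this promoter is known to carry a retinoic acid response element.
Cyp26a1: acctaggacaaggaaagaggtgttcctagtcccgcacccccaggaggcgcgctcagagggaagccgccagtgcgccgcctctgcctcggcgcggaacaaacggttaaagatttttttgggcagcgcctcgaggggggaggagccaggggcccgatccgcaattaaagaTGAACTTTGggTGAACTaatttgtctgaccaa
Capitals mark 2 matches to the half-site AGTTCA on the minus strand, 32 and 21 bases before the start, and a match to CAAAGT on the minus strand that overlaps the first of them. AGTTCA was present in 6 of 33 P450 windows and in 9.28% of windows of all genes. The match describes the sequence and does not show that a factor was bound in these livers.

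Cyp17a1, the hydroxylase and lyase of androgen synthesis, had 42.2, 65.3, 51.2 and 109 normalised counts in Khk KO against 141, 232, 135 and 161 in WT. The groups did not overlap, the WT mean was 2.50 times the Khk KO mean, and the log2 fold change was -1.29 ± 0.31 (SE; adjusted p = 0.0256, edgeR). Of 9 genes known as higher in female mouse liver, 3 were listed in liver. Cyp17a1 was the only one of these called by edgeR, and it went against the higher means of Cyp2b9 and Cyp2a4. Cyp8b1, the sterol 12-alpha-hydroxylase that directs bile acid synthesis to cholic acid, had 3005, 5511, 5130 and 5580 in Khk KO against 4093, 8747, 8653 and 12477 in WT. WT replicate 1 was below 3 of the 4 Khk KO libraries, and the log2 fold change of -0.79 ± 0.29 (SE) had an adjusted p of 0.0931 (edgeR), while the authors' deposited table gave 0.02. Of the 7 genes of a bile acid synthesis list, Cyp8b1 was the one listed in liver.

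Cyp2d10 and Cyp2d40, members of the debrisoquine hydroxylase array on chromosome 15, fell in Khk KO. Cyp2d10 had the highest FPKM, a level per transcript length, of all P450 genes listed in liver, with 714 in Khk KO and 1074 in WT. Its normalised counts were 13935, 13458, 15435 and 12706 in Khk KO against 14261, 21955, 26546 and 19379 in WT, with WT replicate 1 inside the Khk KO range. The log2 fold change was -0.53 ± 0.16 (SE; adjusted p = 0.0479, edgeR). Cyp2d40 had 1175, 904, 1213 and 1088 in Khk KO against 1613, 2308, 2725 and 1535 in WT, with no overlap, and a log2 fold change of -0.87 ± 0.19 (SE; adjusted p = 0.0214, edgeR). Of the 50-base words of Cyp2d10, 35.8% occur in other genes, most often in Cyp2d11. Cyp20a1, an orphan P450, averaged 191 ± 11.3 in Khk KO and 270 ± 79.8 in WT (SD, n = 4) and was not called (adjusted p = 0.151, edgeR).

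**Figure D2:**
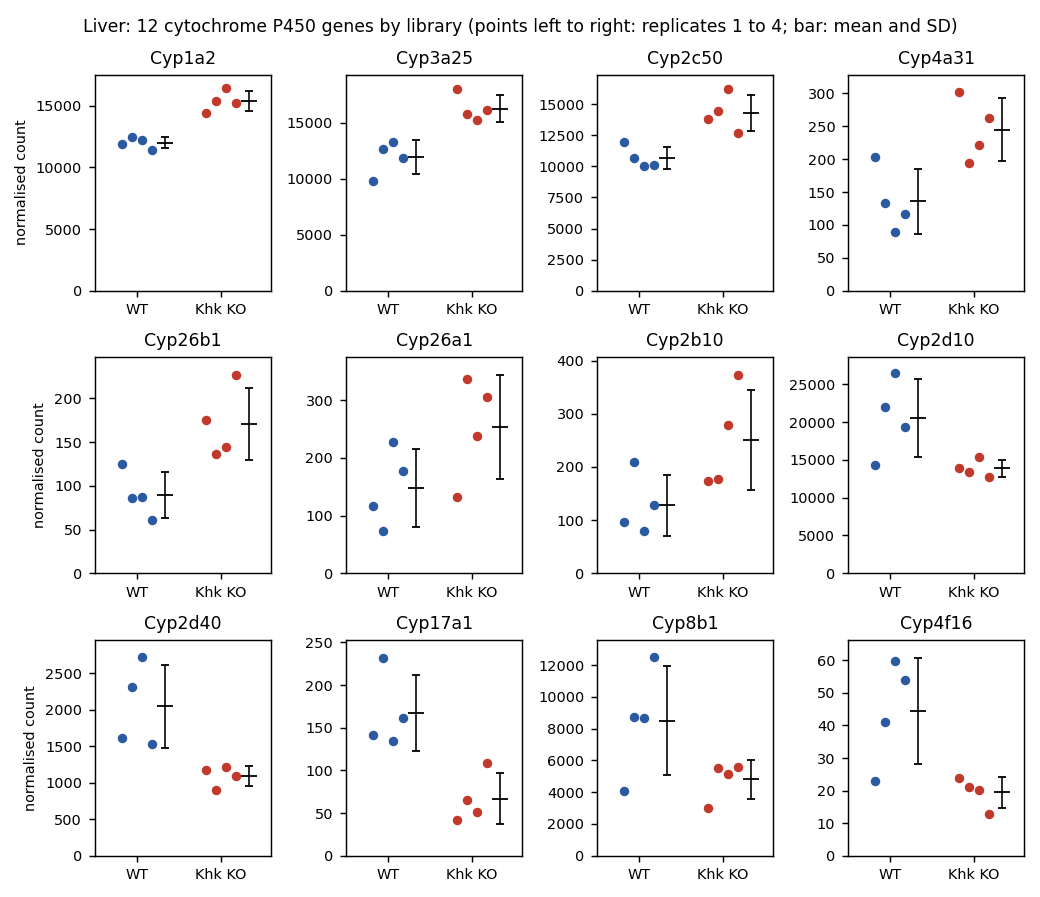
Normalised counts of 12 liver P450 genes (vertical axes, each starting at 0) in the 4 WT (blue) and 4 Khk KO (red) libraries, in replicate order from left to right, with the mean and SD of each group in black. Cyp1a2, Cyp3a25, Cyp2c50 and Cyp26b1 are higher in all 4 Khk KO libraries, and Cyp2d40 and Cyp17a1 are lower in all 4.

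Taking the length trend out of each liver library moved the P450 genes upward. The edgeR fit then called 9 genes higher, beside a background of 6.91%, and 0 lower, beside a background of 6.8%. The 9 were Cyp1a2, Cyp26a1, Cyp2b10, Cyp2c23, Cyp2c37, Cyp2c50, Cyp3a25, Cyp3a59 and Cyp4a31, and the largest of their log2 fold changes was 1.53 for Cyp2b10. At an unadjusted p under 0.05, 1 gene was lower in that fit, and DESeq2 without the correction called 5 lower. Cyp26b1, the longest liver member at 5352 bases, was the one gene called higher as counted that was not called here (0.71 ± 0.23, SE; adjusted p = 0.137, edgeR). Cyp17a1 was at -0.76 and Cyp2d40 at -0.27, neither past the threshold, and Cyp2d10 turned to 0.10. A genotype effect that runs with gene length would be taken out along with the trend. The trend was itself drawn from listed genes alone, so its size, and the 9 calls, depend on that selection.

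**Figure D3:**
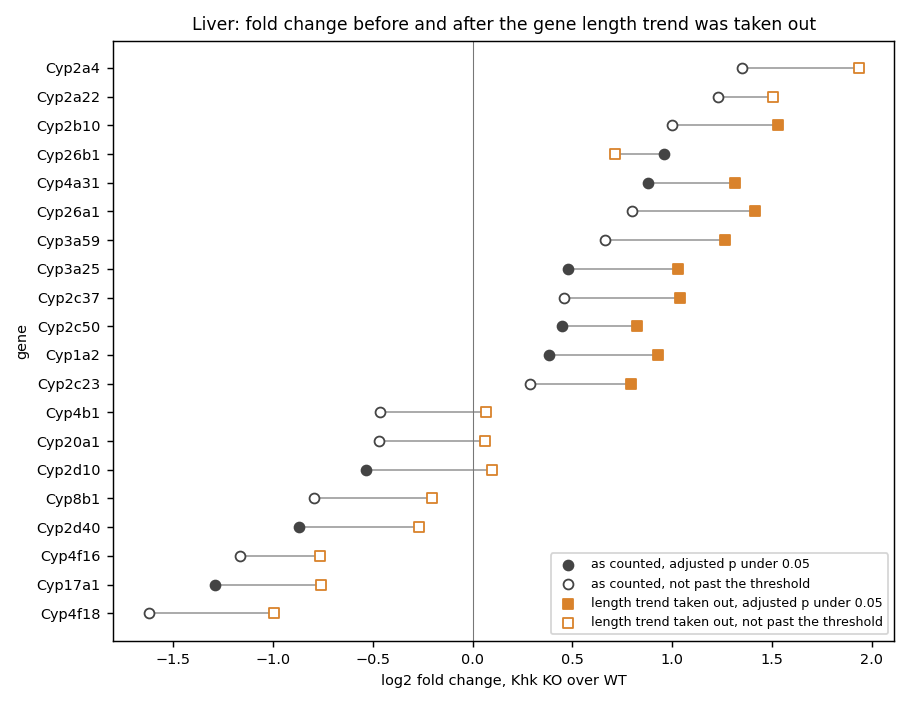
Log2 ratio of Khk KO to WT (horizontal axis) for the 20 fitted liver P450 genes (vertical axis), as counted (circles) and after the gene length trend was taken out (squares). Filled symbols have an adjusted p under 0.05 in edgeR. Every gene except Cyp26b1 moves to the right, and Cyp2d10, Cyp4b1 and Cyp20a1 cross 0.

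In ileum the P450 genes that passed the test were all lower in Khk KO. Of these 5 genes, 3 were Cyp4f genes, whose enzymes hydroxylate leukotrienes, long-chain fatty acids and vitamin E, and 2 were of family 2. Of 13 listed genes, 12 passed the edgeR filter on low counts, 3 with a positive and 9 with a negative log2 fold change. The edgeR test called 5 lower (Cyp2c68, Cyp2s1, Cyp4f13, Cyp4f16 and Cyp4f40), beside a background of 21.3%, and the authors' deposited table called the same 5, beside a background of 21.2%. Neither called a P450 gene higher, beside backgrounds of 25.1% and 27.1%. DESeq2 also called 0 higher, and 1 gene was higher at an unadjusted p under 0.05 in edgeR. The genotypes did not overlap for 5 of the 13 genes, against 66.8% of listed ileum genes. With size factors of the authors instead of TMM scaling, 2 were called lower, and the calls over all ileum genes shifted from 1202 higher and 1019 lower to 1045 and 540.

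All 5 family 4 genes listed in ileum were lower on average in Khk KO. Cyp4f16 had 1559, 1514, 1786 and 1357 normalised counts in Khk KO against 3442, 2542, 2463 and 2642 in WT, with no overlap. The WT mean was 1.78 times the Khk KO mean, and the log2 fold change was -0.82 ± 0.11 (SE; adjusted p = 0.00407, edgeR). It was the one ileum P450 gene called in all 8 fits that left out a library. Cyp4f13 had 697, 741, 783 and 646 in Khk KO against 1049, 1012, 1010 and 949 in WT. These groups also stood apart, with a log2 fold change of -0.48 ± 0.10 (SE; adjusted p = 0.0136, edgeR). Cyp4f40 averaged 1804 ± 218 in Khk KO and 2388 ± 220 in WT (SD, n = 4) and fell by 0.40 ± 0.10 on the log2 scale (SE; adjusted p = 0.0278, edgeR). Cyp4f14, the leukotriene B4 hydroxylase and by FPKM the highest P450 gene of the ileum table (198 in Khk KO, 269 in WT), had an adjusted p of 0.0627 (edgeR). Its WT replicate 1, at 18128 normalised counts, was the highest library and the Khk KO range was 8666 to 11128. Cyp4v3, a fatty acid hydroxylase outside the array, averaged 1195 ± 220 in Khk KO and 1619 ± 250 in WT (SD, n = 4; adjusted p = 0.0555, edgeR).

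The 4 Cyp4f genes lie in 1 array on chromosome 17 between positions 32536558 and 32947402, as the files give them. Cyp4f16 shares 16.3% of its 50-base words with Cyp4f37, which was not listed, while Cyp4f13, Cyp4f14 and Cyp4f40 share at most 2.39% with any other genes. The 200 bases before the start sites of the 2 genes with the largest fall and the highest level are shown (RefSeq, build GRCm38.p6, chr17:32536357-32536556 on the plus strand for Cyp4f16 and chr17:32917343-32917542 on the minus strand for Cyp4f14).
Cyp4f16: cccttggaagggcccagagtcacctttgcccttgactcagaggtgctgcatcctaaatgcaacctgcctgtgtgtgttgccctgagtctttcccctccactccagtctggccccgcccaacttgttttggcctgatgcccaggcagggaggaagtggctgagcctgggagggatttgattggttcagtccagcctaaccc
Cyp4f14: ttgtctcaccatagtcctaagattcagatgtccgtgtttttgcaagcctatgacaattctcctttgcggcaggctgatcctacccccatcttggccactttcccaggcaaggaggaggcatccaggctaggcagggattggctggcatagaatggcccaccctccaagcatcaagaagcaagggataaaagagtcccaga
Neither window holds any of the 5 searched motifs on either strand, so no letters are in capitals. That says only that these letters are absent from these 200 bases.

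Most ileum genes of like length also had negative log2 fold changes. Among genes of 3000 to under 5000 bases, 0 of 4 P450 genes had a positive value, and 30.2% of 808 other protein-coding genes did. The shorter classes went the other way, with 1 of 4 P450 genes against 5.75% of others at 1500 to under 2000 bases and 1 of 3 against 8.11% at 2000 to under 3000 bases. Measured from the length curve, 5 of 12 P450 genes lay above it, with a median difference of -0.09 on the log2 scale, against 51.2% of other protein-coding genes. After the trend was taken out, edgeR called Cyp4f16 alone (-0.49 ± 0.10, SE; adjusted p = 0.0229), beside backgrounds of 5.1% for lower and 4.85% for higher genes. Only 3.47% of other protein-coding genes of 3000 to under 5000 bases had a lower log2 fold change than Cyp4f16. Cyp2s1 was at -0.60 ± 0.14 (SE) with an adjusted p of 0.0501, just outside the threshold, and Cyp4f40 turned to 0.08. Enterocyte markers were listed for 6 of 12 genes, and their summed normalised counts were 151337 to 199166 in Khk KO and 184401 to 269355 in WT. Anpep made up most of these sums. Fabp2 was called lower (-0.86, adjusted p = 0.0152, edgeR) and Apob higher (0.64, adjusted p = 0.0333, edgeR), and neither was called after the length trend was taken out. Alpi, Anpep, Apoa4 and Rbp2 were at -0.52, -0.29, -1.50 and -1.10 on the log2 scale and were not called. Apob alone among the listed enterocyte markers had a positive value. The part of cell composition in the Cyp4f levels was not tested, and in bulk tissue fewer cells of a type and less RNA per cell cannot be told apart.

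Beyond family 4, ileum calls were in family 2. Cyp2s1, an extrahepatic enzyme that handles retinoic acid and eicosanoids, had 1142, 1175, 1469 and 1400 normalised counts in Khk KO against 2575, 1575, 1756 and 1564 in WT. The groups did not overlap, though WT replicate 1 stood well above the rest, and the log2 fold change was -0.51 ± 0.14 (SE; adjusted p = 0.0349, edgeR). Cyp2c68 had 146, 204, 205 and 161 in Khk KO against 254, 222, 319 and 305 in WT, and a log2 fold change of -0.62 ± 0.18 (SE; adjusted p = 0.048, edgeR). Since 43.3% of its 50-base words occur in other genes, chiefly Cyp2c40, its counts are uncertain. Cyp3a11, the main drug-oxidising family 3 enzyme and a known target of the receptor PXR, had 120, 113, 246 and 86.7 in Khk KO and 78.3, 42.2, 124 and 54.9 in WT. These groups overlapped, as did those of Cyp3a44, and the adjusted p was 0.142 and 0.185 (edgeR). Cyp2e1, Cyp2d26 and Cyp2d34 also overlapped and were not called, and Cyp11b1, the adrenal steroid 11-beta-hydroxylase, had at most 21.2 normalised counts in any library, did not pass the edgeR filter on low counts and has no adjusted p in the authors' deposited table.

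Single libraries decided several ileum calls. The number called lower was 5 with all libraries and 6 without WT replicate 1. It was 5 without WT replicate 4, 4 without Khk KO replicate 3, 3 without WT replicate 3, 2 without WT replicate 2, Khk KO replicate 2 or Khk KO replicate 4, and 1 without Khk KO replicate 1. In the fits that called 2 or 1, calls over all ileum genes also dropped, from 1202 higher and 1019 lower to between 509 and 638 higher and between 147 and 348 lower. Without WT replicate 3, Cyp3a44 was called higher.

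**Figure D4:**
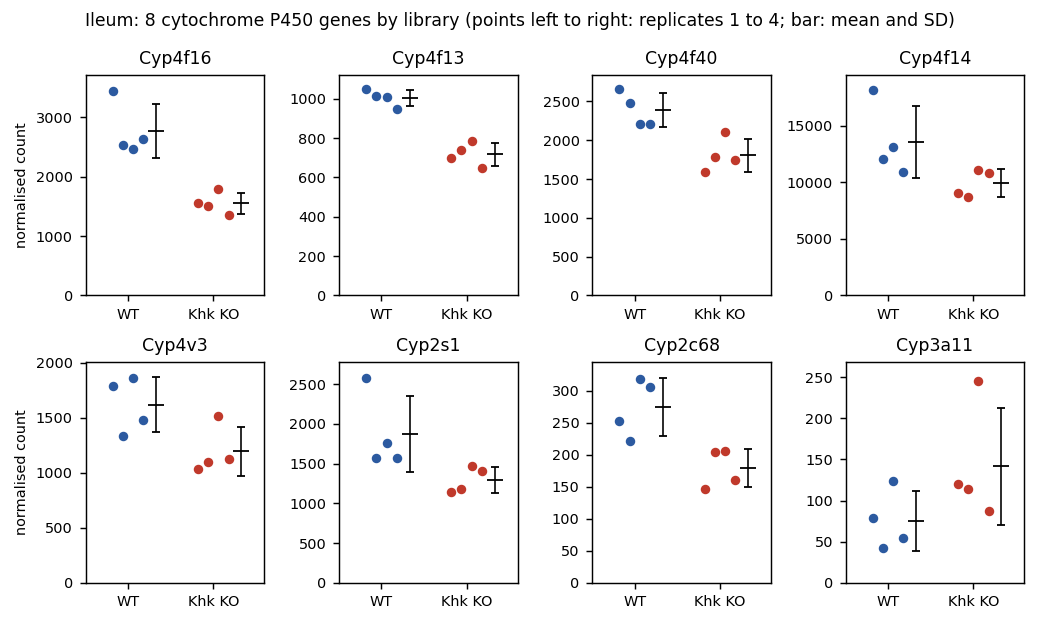
Normalised counts of 8 ileum P450 genes (vertical axes, each starting at 0) in the 4 WT (blue) and 4 Khk KO (red) libraries, in replicate order from left to right, with the mean and SD of each group in black. Cyp4f16, Cyp4f13, Cyp4f40, Cyp2s1 and Cyp2c68 are lower in all 4 Khk KO libraries than in any WT library, and Cyp3a11 overlaps.

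The duodenum table held 2 P450 genes, Cyp26b1 and Cyp3a59, and the genotypes did not overlap for either, against 45.9% of listed duodenum genes. Cyp26b1 had 91.9, 62.2, 118 and 145 normalised counts in Khk KO against 40.1, 41.6, 46.5 and 35.5 in WT. The Khk KO mean was 2.55 times the WT mean and the log2 fold change was 1.49 ± 0.28 (SE). The authors' deposited table called it higher with an adjusted p of 0.00395, beside a background of 1.28% higher and 0.957% lower. The edgeR refit did not (adjusted p = 0.798), and it called 0.0711% of fitted duodenum genes in either direction. DESeq2 called Cyp26b1. Both genes had an unadjusted p under 0.05 in edgeR, which their listing made likely beforehand. Cyp3a59 had 21.1, 36.1, 28.0 and 11.8 in Khk KO against 54.6, 41.6, 38.9 and 46.0 in WT and was not called. The authors' size factors moved the median log2 fold change of all duodenum genes from -0.18 to -0.33, and both genes kept their direction.

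Jejunum listed 7 P450 genes, and the genotypes did not overlap for 4 of them, against 56% of listed genes. Neither the edgeR test nor the authors' deposited table called any, beside backgrounds of 0.0489% in either direction for edgeR and 2.2% higher and 0.912% lower for the authors. Cyp26b1, Cyp27b1, Cyp2c38 and Cyp2f2 have no adjusted p in the authors' deposited table, so only the other 3 could be called there. DESeq2 called Cyp51 lower, and 4 genes had an unadjusted p under 0.05 in edgeR, which their listing made likely beforehand. Cyp51, the lanosterol demethylase of cholesterol synthesis, had 1141, 853, 717 and 1010 normalised counts in Khk KO against 1569, 1299, 1400 and 1445 in WT. Every Khk KO library was below every WT library, with a log2 fold change of -0.62 ± 0.15 (SE; adjusted p = 0.237, edgeR). Cyp27a1, the sterol 27-hydroxylase, averaged 1974 ± 453 in Khk KO and 1439 ± 306 in WT (SD, n = 4), with overlap. Cyp27b1, which activates vitamin D and is best known from kidney, had 4.28, 0.874, 8.29 and 11.4 in Khk KO and 0 in all 4 WT libraries, and did not pass the edgeR filter on low counts. Cyp2f2, a lung and periportal liver enzyme, had at most 9.36 in any library, too few for the edgeR filter on low counts. Cyp2c38 averaged 65.9 ± 30.8 in Khk KO and 36.6 ± 3.42 in WT (SD, n = 4), and Khk KO replicate 4 was the highest library.

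Cyp2e1, the ethanol- and fasting-induced enzyme abundant in pericentral hepatocytes, was lower on average in both jejunum and ileum. In jejunum it had 88.2, 69.0, 48.8 and 32.3 normalised counts in Khk KO against 483, 151, 50.1 and 129 in WT. WT replicate 1, whose difference between long and short genes was the lowest in jejunum (-1.14), was far above the rest. The log2 fold change was -1.70 ± 0.59 (SE) with it and -0.92 without it. In ileum the values were 208, 137, 123 and 285 in Khk KO and 433, 622, 117 and 204 in WT, with a log2 fold change of -0.85 ± 0.45 (SE) and -0.36 without WT replicate 2. Neither was called (adjusted p = 0.237 and 0.294, edgeR). Of 10 hepatocyte markers, 1 was listed in jejunum (Ttr), at 22.3 to 59.9 normalised counts in Khk KO and 52.0 to 79.1 in WT, and 3 were listed in ileum (Hpd, Serpina1b and Tat). The ileum sums were 1008 to 2679 in Khk KO and 830 to 1271 in WT, with Tat called higher (1.65, adjusted p = 0.0243, edgeR). Hpd and Serpina1b went the other way, at -0.41 and -0.75 on the log2 scale. Neither was called (adjusted p = 0.184 and 0.121, edgeR). The part of hepatocyte RNA in the Cyp2e1 values was not tested.

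Cyp26b1 had a higher mean in Khk KO in each of the 3 organs that listed it. In jejunum it had 86.5, 140, 141 and 167 normalised counts in Khk KO against 16.7, 73.6, 55.7 and 91.5 in WT, with a log2 fold change of 1.13 ± 0.46 (SE; adjusted p = 0.256, edgeR). WT replicate 4 was above Khk KO replicate 1 there. On the FPKM scale the WT level was 1.43 ± 0.41 in liver, 0.65 ± 0.35 in jejunum and 0.37 ± 0.04 in duodenum (SD, n = 4). The ranges of jejunum and duodenum overlapped, and so did those of liver and jejunum by a narrow margin. Organs were normalised separately, so these levels are set side by side and were not tested. It was the longest listed P450 gene, at 5352 bases, and in duodenum and jejunum 99.4% and 97.6% of other protein-coding genes of 5000 bases and over had a lower log2 fold change, against 72.6% in liver.

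Of the other genes listed in 2 organs, Cyp4f16 and Cyp3a59 had very different WT levels between the organs. Cyp4f16 stood at 43.9 ± 6.16 FPKM in WT ileum and 1.27 ± 0.48 in WT liver (SD, n = 4), with no overlap, and was lower on average in Khk KO in both. Cyp3a59 stood at 28.6 ± 12.2 FPKM in WT liver and 1.10 ± 0.17 in WT duodenum (SD, n = 4). Its mean was higher in Khk KO in liver and lower in Khk KO in duodenum, and the difference between the organs was not tested. Cyp2e1 stood at 7.63 ± 5.11 FPKM in WT ileum and 5.62 ± 5.42 in WT jejunum (SD, n = 4), which do not differ beyond their spread.

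**Figure D5:**
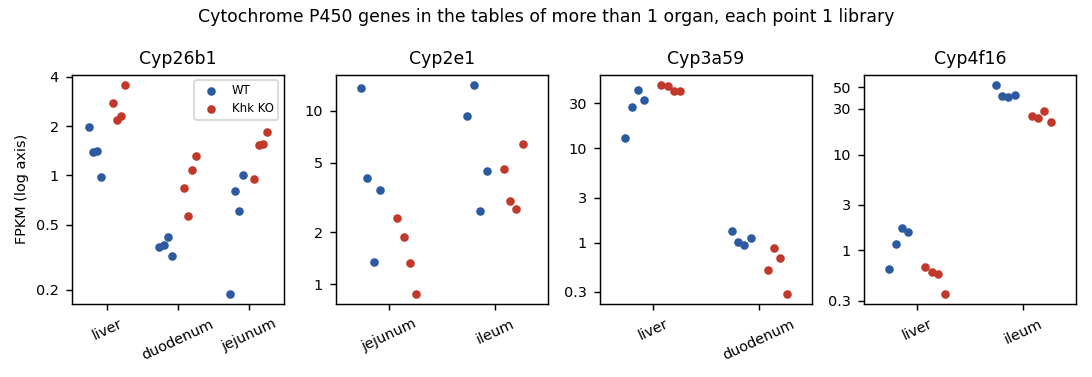
FPKM on log axes (vertical) of the 4 P450 genes listed in more than 1 organ, by organ (horizontal), with 1 point per WT (blue) or Khk KO (red) library in replicate order. Cyp26b1 averages 1.91 times the WT level in Khk KO liver and 2.55 times in duodenum in normalised counts, and Cyp4f16 is far higher in ileum than in liver.

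Among 11 genes that supply P450 enzymes with electrons, membrane partners or haem, 2 were listed in liver and 3 in ileum. In liver Pgrmc1, a haem-binding partner of P450 enzymes, fell by 0.50 on the log2 scale (adjusted p = 0.0339, edgeR), a value that turned to 0.09 after the length trend was taken out. Cyb5a, the cytochrome b5 that donates electrons, averaged 11155 ± 546 normalised counts in Khk KO and 14214 ± 1983 in WT (SD, n = 4) and was called lower by the authors' deposited table but not by edgeR, turning to 0.22 without the length trend. In ileum Cyb5r3, the cytochrome b5 reductase, fell by 0.41 (adjusted p = 0.028, edgeR), and neither Cyb5a nor Alas1, the rate-limiting enzyme of haem synthesis, was called. After the length trend was taken out Cyb5r3 lost its call (adjusted p = 0.0845, edgeR) and Alas1 was called lower (-0.64, adjusted p = 0.0296, edgeR). Por, the main electron donor, was listed in neither organ.

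Of 32 receptors and transcription factors known to control P450 genes, 9 were listed in liver and 13 in ileum. In liver edgeR called 3 of the 9 higher and 2 lower, beside the all-gene backgrounds of 22.8% and 23.8%, and 1 higher and 0 lower after the length trend was taken out. Ahr, the aryl hydrocarbon receptor, averaged 1330 ± 322 normalised counts in Khk KO and 551 ± 113 in WT (SD, n = 4), with a log2 fold change of 1.29 (adjusted p = 0.016, edgeR). It was the one that kept its call then (0.89, adjusted p = 0.0164, edgeR). Ppara averaged 3593 ± 187 in Khk KO and 2511 ± 830 in WT (SD, n = 4) and missed the threshold (adjusted p = 0.108, edgeR). In ileum edgeR called 5 of the 13 higher and 2 lower, beside backgrounds of 25.1% and 21.3%, and 2 higher and 0 lower after the length trend was taken out. Rara, a retinoic acid receptor, was called lower at -0.43 (adjusted p = 0.0224, edgeR) and missed the threshold then (adjusted p = 0.0516, edgeR). Duodenum listed 8 and jejunum 6 of the 32, none called by edgeR, while the authors' deposited table called Nr1d1 higher in duodenum and Ppara higher in jejunum.

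Markers of cell types were set beside the liver results. Hepatocyte markers were listed for 7 of 10 genes, with summed normalised counts of 337319 to 379996 in Khk KO and 416820 to 491775 in WT. As counted edgeR called 3 of the 7 lower. After the length trend was taken out it called none lower and Tat higher (1.21, adjusted p = 0.0185, edgeR). Apoa2, Ttr, Serpina1a, Serpina1b and Hpd turned to positive values of 0.17 to 0.23, while Fgb stayed negative at -0.21. Of 9 pericentral markers, 6 were listed, Cyp1a2 among them. Their summed normalised counts were 57152 to 62963 in Khk KO and 60136 to 69906 in WT. Lgr5 and Slc1a2 were called higher in edgeR. Neither was called after the length trend was taken out, and Slc1a2 turned to -0.29. Of 8 periportal markers 3 were listed, with sums of 95770 to 116347 in Khk KO and 104957 to 132645 in WT. Of 6 erythroid markers 5 were listed and edgeR called all 5 lower, with sums of 2967 to 3515 in Khk KO and 4584 to 10959 in WT. After the length trend was taken out 1 of them, Hbb-bt, was still called lower (adjusted p = 0.0344, edgeR). The part of these shifts in the P450 values was not tested.

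Many of the P450 genes sit in arrays. In liver the 4 listed genes of the chromosome 7 array (Cyp2b10, Cyp2b9, Cyp2a4 and Cyp2a22) had positive fold changes in the authors' deposited table, as did both listed genes of the family 3 array on chromosome 5 and both of the Cyp2c array on chromosome 19. Both listed Cyp2d genes on chromosome 15 were lower there. The array on chromosome 4 was mixed, with Cyp4a31 higher and Cyp4b1 lower. Near-identical copies can share reads: 14 of the 38 genes had over 10% of their 50-base words in another gene. Neighbours with shared words are not independent observations. Strand could not be settled from the labels, and 9.76% of the exon bases of Cyp4f18 and 13.5% of those of Cyp2f2 overlap a gene on the opposite strand, so their counts are uncertain.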

How the data were processed

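Polyadenylated RNA of 4 organs from male Khk KO and WT mice was measured in 32 libraries. Reads were aligned with HISAT2 2.0.5 to GRCm38, per the submitters' processing notes; the counting tool and the differential test are not given in the sources used here. Per the file headers, each organ's table holds read counts per gene. It also holds a normalised signal, which the authors obtained by dividing counts by 1 size factor per library, called the normalised count here. The authors also deposited FPKM values and, for each gene, a log2 fold change between genotypes with its p-value, raw and adjusted. Rows stop at an unadjusted p of 0.05.

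Counts of each organ were refitted alone with edgeR 4.0.16 in R 4.3.3 (TMM, filterByExpr, quasi-likelihood test) with library sizes implied by the FPKM values. Tables truncated in this way give TMM and the dispersion fit few unchanged genes. Benjamini-Hochberg adjustment used the authors' own number of genes (liver 18225, duodenum 15615, jejunum 9881, ileum 16034), and calls use 0.05. The SE is the log2 fold change divided by the square root of the test's F. The gene length trend was a lowess curve (span 0.5) of each library's deviations on log2 gene length, entered as an offset. The curve of log2 fold change on gene length was drawn through protein-coding genes whose mean normalised count was 50 or more. Both kinds of curve hold listed genes only, so genes with little difference between genotypes are missing from them. The fit was tested on simulated data with a known set of changed genes and no selection of genes by p-value. That test therefore cannot show how the fit behaves on truncated tables. Alternatives were DESeq2 1.42.0, the authors' size factors, no filter on low counts, a replicate block, other curve settings and leaving out each library.

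Replicate libraries differed beyond counting noise in all 48 pairs (chi-square over its degrees of freedom, 11.2 or more), so no pair was treated as 1 library. Annotated genes, 50-base words and overlaps came from GENCODE, and promoters from RefSeq (GRCm38.p6), found for 33 of 38 genes. File positions equalled the annotation's for 34 of 38 genes. The exact two-sided permutation test of 4 against 4 libraries cannot go below 0.0286, which every gene with no overlap reached.

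Described genes include those with an adjusted p under 0.05 by the authors in duodenum or jejunum, those listed in 3 or more organs and, in liver and ileum among genes whose mean normalised count was 100 or more, the highest FPKM of each family and up to 6 of the largest rises and falls that the authors called. Other P450 genes were chosen after their values were seen. The members and lists were chosen with earlier results of these data known.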

Additional observations from a re-analysis of the deposited data

Results flagged for a closer look

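Within each organ and genotype, a library was singled out where its gap to the nearest other library, over the group's range, exceeded Dixon's critical value for 4 values. This held for 6 of 86 groups of 4 libraries, or 6.98%, and chance gives about 1 in 20. Values are normalised counts.

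In liver WT replicate 1, Cyp2a22 was at 6.57 against 15.1 in the nearest WT library, and Cyp4f18 was at 3.28 against 21.8. In the same library Cyp2b9 was at 8.76, and the other 3 WT libraries were at 0. In liver WT replicate 4, Cyp2a4 was at 53.1, with the nearest WT library at 16.4. In ileum WT replicate 3, Cyp2d26 was at 996, with the nearest at 591. In ileum Khk KO replicate 4, Cyp2d34 was at 115, with the nearest at 42.9.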

How the results depend on the processing

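As counted, edgeR called 5 P450 genes higher and 3 lower in liver, and 5 lower in ileum. In liver DESeq2 and the authors' deposited table each called 8 higher and 5 lower, taking out the length trend gave 9 and 0, and adjusting over the genes fitted gave 10 and 7. In duodenum DESeq2 and the authors' table called 1 higher, beside 32 and 20 higher over all duodenum genes. In jejunum DESeq2 called 1 lower and adjusting over the genes fitted 2, beside 62 and 636 lower over all jejunum genes. In ileum the authors' size factors gave 2 lower, the length trend taken out 1, and adjusting over the genes fitted 8 lower and 1 higher. DESeq2 and no filter on low counts each called 7 lower there. Over all ileum genes, adjusting over the genes fitted called 2316 lower and 2178 higher. DESeq2 called 1583 and 1937 of them, and no filter on low counts 1271 and 1257. Taking out the length trend moved the median log2 fold change of the P450 genes to 0.81 in liver, 0.85 in jejunum and -0.19 in ileum, and a wider curve (span 0.8) put the liver difference from the curve at 0.82. That correction reversed Cyp20a1 (0.064), Cyp2d10 (0.097) and Cyp4b1 (0.066) in liver and Cyp4f40 (0.077) in ileum. Leaving out 1 library gave 0 to 7 higher and 0 to 8 lower genes in liver, 0 to 1 higher and 1 to 6 lower in ileum, and liver medians of 0.32 to 0.45. The cause of these shifts was not tested.

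Replicate numbers are shared between genotypes, but the correlation of same-numbered libraries exceeded 0.1 for 0 of 4 liver pairs, 1 of 4 duodenum pairs, 2 of 4 jejunum pairs and 0 of 4 ileum pairs, so the numbers do not show a pairing. Of the 8 libraries of an organ, 3 liver libraries correlated best with their own number, as did 1 from duodenum, 3 from jejunum and 0 from ileum. With the replicate block, liver had 3 genes higher and 4 lower, and ileum 3 lower. The same fit called 1235 higher and 921 lower over all liver genes, and 813 and 389 over all ileum genes. With the replicate block and the length trend taken out, liver had 9 higher and 0 lower and ileum 0 lower, with medians of 0.83 in liver, 0.88 in jejunum and -0.17 in ileum, and Cyp20a1, Cyp2d10, Cyp4b1 and Cyp4f40 at 0.084, 0.099, 0.050 and 0.078. Over the alternatives for single genes and for WT level ratios between organs, 478 of 629 values were unchanged. For a fold change this means the same direction and side of the threshold, and for a ratio a value within its spread. On normalised counts per kilobase, scaled within each organ, WT Cyp4f16 was 62.3 times as high in ileum as in liver, against 34.5 times on FPKM. Tables without genes of larger p limit these fits, and the depth beyond the listed genes is not known.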

Other observations

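Pseudogenes of the P450 arrays were listed beside the coding genes. In liver, Cyp2d38-ps averaged 1002 ± 174 normalised counts in Khk KO and 371 ± 39.5 in WT (SD, n = 4), and Cyp2d37-ps averaged 2465 ± 461 and 1392 ± 308. Cyp2d36-ps averaged 295 ± 111 in Khk KO and 88.4 ± 31.1 in WT. For all 3 the genotypes did not overlap, and the authors' deposited table called each of them higher, with adjusted p-values of 6.01e-14, 5.49e-04 and 1.22e-05 in that order. Over all listed liver genes, 65% had no overlap and the authors called 35.8% higher. The coding genes Cyp2d10 and Cyp2d40 of the same array on chromosome 15 were lower in Khk KO. Cyp2d41-ps, with which Cyp2d40 shares 8.05% of its 50-base words, averaged 37.4 ± 4.37 in Khk KO and 63.8 ± 24.2 in WT. Cyp21a2-ps on chromosome 17 averaged 66.4 ± 18.7 in Khk KO and 31.0 ± 12.2 in WT, with no overlap. Cyp2d35-ps averaged 36.8 ± 23.3 in Khk KO and 14.3 ± 7.49 in WT, with overlap. Cyp2c52-ps was lower in Khk KO without overlap, at 0.47 ± 0.54 against 4.92 ± 4.21 in WT. The authors called neither Cyp2d35-ps nor Cyp2c52-ps.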
